A study of Homo sapiens with 8 samples.

Results

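The genes described here are 43 genes of DNA replication and of the passage from G1 into S phase, chosen by name, of 60483 genes in the deposited count table. The choice was made with earlier results of these data known, so the comparisons with all genes below are descriptive. Their Ensembl identifiers were matched to symbols, the 2 lanes of each library were summed, and the 4 libraries were compared by group and by the prefix of their column names. All 43 were found, and all 43 passed the filter on low counts. The list covers 9 roles: origin licensing, helicase activation, polymerases and primase, the sliding clamp and its loader, flap processing and ligation, single-strand binding, nucleotide supply, G1/S regulators, and the inheritance of histones and methylation.

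RNA came from SW1990, an established line of pancreatic ductal cancer, and all sample titles name the side population, a fraction of cells usually defined by export of a DNA-binding dye. The groups were control cells and cells with a CRISPR knockdown of PAF1, a subunit of a complex that accompanies RNA polymerase II during elongation, with 2 libraries per group. No time point, guide sequence or clone was given for either group, and no other treatment was named.

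Cells license origins in G1, when ORC, CDC6 and CDT1 load the MCM2-7 helicase onto DNA. At the start of S phase, kinases such as CDK2 with cyclin E activate that helicase together with CDC45 and GINS. Polymerases held by a clamp of PCNA then copy DNA. Many of these genes are targets of E2F transcription factors, so their mRNA levels usually rise together as dividing cells approach S phase.

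The column names carried the group and the lane. In each group 1 name began with SP and the other did not, so the libraries are called SP-prefixed and unprefixed here. The titles use SP for side population in every sample, but do not say why the names of some columns lack it, so it is not known whether the unprefixed libraries are from side population cells too. The names differ further: both SP-prefixed ones contain P3, a term that is not explained, and the unprefixed control is the only library whose name lacks the word CRISPR. A difference between the controls cannot be told apart from whatever these names stand for. Values of all libraries are given in the order unprefixed control, SP-prefixed control, unprefixed knockdown and SP-prefixed knockdown. CPM are counts scaled to library size, corrected by TMM, a normalization that aligns the bulk of genes between libraries, and RPKM are the same values per kilobase of the exon length in the deposited table.

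Promoters of 5 members are shown because the members are a set known for control by E2F, and because these genes lie at different places in the results that follow. PCNA had the highest level per length, UHRF1 had the largest group difference, MCM7 is a helicase subunit, E2F1 encodes an E2F factor, and CDC6 was the only member with both libraries labelled PAF1 knockdown below both controls. The sequences are the 250 bases before the RefSeq gene start, written 5′ to 3′ on the gene's strand, and capitals mark a match to TTTGGCGC, TTTCCCGC, TTTGCCGC or TTTCGCGC, which are forms of the E2F motif, on either strand.
PCNA promoter, GRCh38.p14 chr20:5126623-5126872, minus strand: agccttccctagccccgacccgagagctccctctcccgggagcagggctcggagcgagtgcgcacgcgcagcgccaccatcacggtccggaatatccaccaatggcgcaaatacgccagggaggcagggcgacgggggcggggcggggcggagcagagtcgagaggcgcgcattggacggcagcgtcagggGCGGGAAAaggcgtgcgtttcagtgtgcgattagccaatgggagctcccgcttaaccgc
UHRF1 promoter, GRCh38.p14 chr19:4909251-4909500, plus strand: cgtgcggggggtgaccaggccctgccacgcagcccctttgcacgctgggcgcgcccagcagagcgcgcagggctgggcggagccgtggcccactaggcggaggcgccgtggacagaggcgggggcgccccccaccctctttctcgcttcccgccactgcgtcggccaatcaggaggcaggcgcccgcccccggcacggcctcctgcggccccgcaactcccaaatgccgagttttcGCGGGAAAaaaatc
MCM7 promoter, GRCh38.p14 chr7:100101398-100101647, minus strand: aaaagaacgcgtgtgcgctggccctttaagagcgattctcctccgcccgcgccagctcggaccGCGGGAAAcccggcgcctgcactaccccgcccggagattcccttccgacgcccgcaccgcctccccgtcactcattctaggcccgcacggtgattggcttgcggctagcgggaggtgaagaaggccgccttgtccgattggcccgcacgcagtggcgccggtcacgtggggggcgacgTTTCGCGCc
E2F1 promoter, GRCh38.p14 chr20:33686386-33686635, minus strand: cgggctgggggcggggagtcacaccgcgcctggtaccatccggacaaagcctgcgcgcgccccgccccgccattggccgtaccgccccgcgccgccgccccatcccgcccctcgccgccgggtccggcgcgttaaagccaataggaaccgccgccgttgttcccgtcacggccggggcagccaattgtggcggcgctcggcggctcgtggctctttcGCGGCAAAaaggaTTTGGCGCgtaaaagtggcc
CDC6 promoter, GRCh38.p14 chr17:40287629-40287878, plus strand: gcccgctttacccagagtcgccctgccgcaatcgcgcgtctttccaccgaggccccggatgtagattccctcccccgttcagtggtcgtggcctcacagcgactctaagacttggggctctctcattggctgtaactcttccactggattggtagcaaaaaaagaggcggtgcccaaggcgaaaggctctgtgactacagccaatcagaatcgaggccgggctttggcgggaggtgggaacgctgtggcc

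RefSeq held a promoter for 36 of the 43 members. An octamer of this kind stood in 14 of the 36, which is 38.9%, against 3.72% of 15843 promoters of protein-coding genes. Overlapping matches were counted separately, and the palindromic forms in the MCM6 promoter gave 4. The pentamer CCAAT, searched on both strands, stood in 58.3% of the member promoters and in 34.5% of all protein-coding ones. Among 56 promoters of the other replication and G1/S genes described below, an octamer stood in 14.3% and CCAAT in 42.9%. Among 27 promoters of mitosis genes, an octamer stood in 3.7% and CCAAT in 77.8%, a higher share than in the members. The members with an octamer were CDT1, MCM3, MCM6, MCM7, GINS2, POLA1, POLA2, POLE, RFC3, PCNA, LIG1, TYMS, E2F1 and UHRF1. These matches describe the letters in the windows. Of the windows shown, those of MCM7 and UHRF1 lie wholly inside the span of the counted gene, and that of CDC6 nearly so. The RefSeq starts of PCNA and E2F1 lie just inside it too, so other start sites are not covered.

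Libraries held 17234973 to 22348416 counts. The chi-square over genes, divided by its degrees of freedom, was 1.001 to 1.040 between the lanes of a library and 11.16 to 45.83 between libraries, so lanes were treated as 1 sample. Member genes had 164 to 9334 counts per library, which gives exact 95% Poisson intervals with half-widths of 2.03% to 15.6%; these cover counting error only. PAF1 mRNA did not separate the groups, with 55.2, 43.9, 41.7 and 44.4 CPM (log2 fold change -0.20 ± 0.16, SE of 2 libraries per group; edgeR with Benjamini-Hochberg, adjusted p = 0.659), so each direction below rests on the labels. The 8 ductal epithelial markers summed to 5582 to 6962 CPM. The 22 markers of leukocytes, fibroblasts, endothelial, acinar and endocrine cells summed to 65.0 to 76.9 CPM, and 6 of them were at 0 in every library. Most of that sum was COL1A1, at 29.8 to 37.9 CPM, and CDH5, at 20.7 to 27.4 CPM.

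The replication and G1/S genes were mostly lower in the SP-prefixed control than in the other 3 libraries. Among those 3, the highest value of a gene exceeded the lowest by 1.99% (CDC6) to 61.2% (CCNE2). The SP-prefixed knockdown was the highest library for 25 members, and for 4346 of all 16417 genes tested. Summed over the 43 genes, the level was 5173, 4112, 5119 and 5491 CPM. The SP-prefixed control held the lowest value for 36 of the 43 members, a position it took for 31.7% of all 16417 genes tested. For 26 members its counting interval lay wholly below those of the other libraries, against 9.78% of all genes. Its level was 58.0% (UHRF1) to 133% (PRIM1) of the mean of the other libraries, with a median of 79.7% over the members. By lane, 33 members were lowest in it in lane 1 and 36 in lane 2. Lanes are technical replicates of the same libraries, so this bears on counting error only. In bulk RNA, fewer cells in S phase and less of these mRNAs per cell cannot be told apart.

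**Figure D1:**
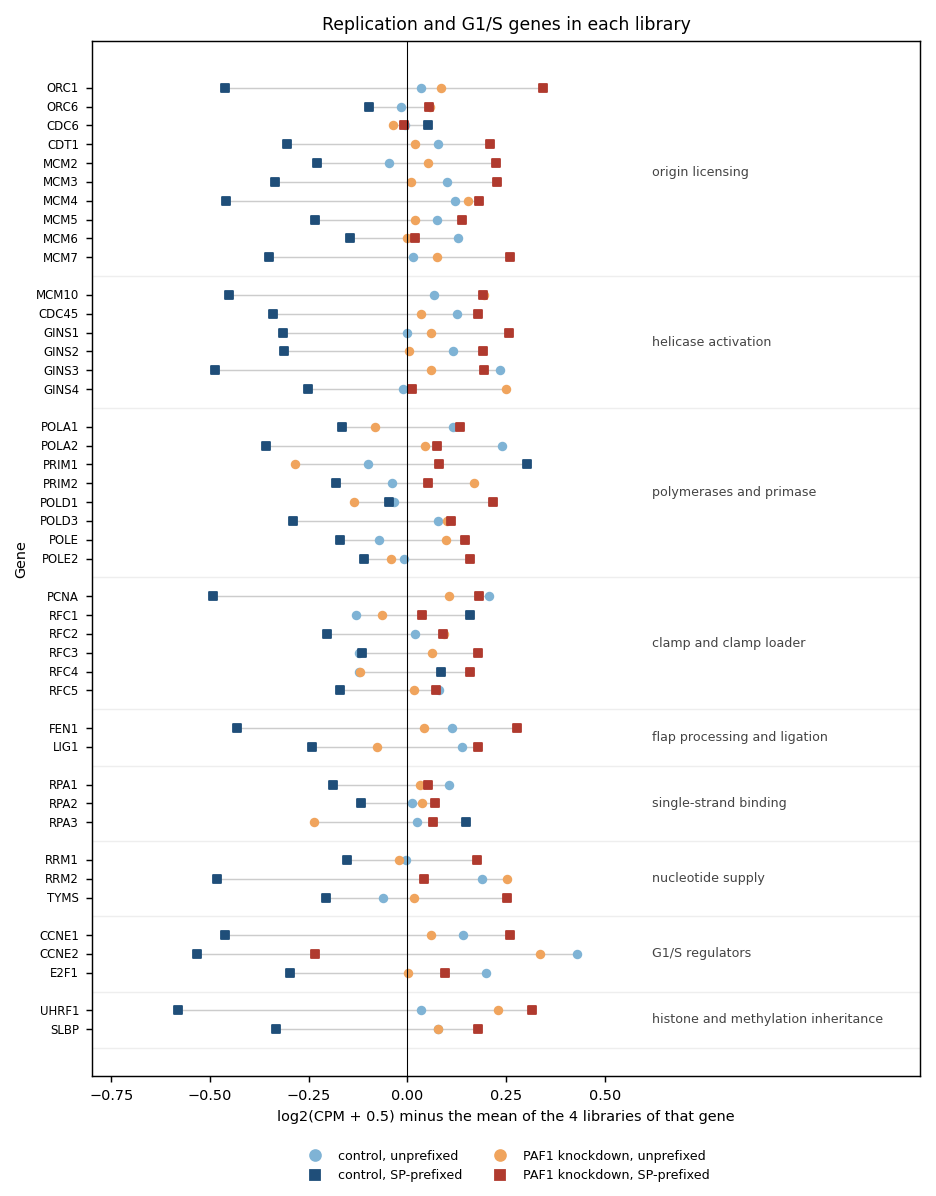
Each line of points is 1 gene, and the horizontal axis gives log2(CPM + 0.5) minus that gene's mean over the 4 libraries; colours separate the groups and squares mark SP-prefixed libraries. The SP-prefixed control (dark blue squares) is the leftmost point for 36 of the 43 genes. The SP-prefixed knockdown is the rightmost for 25, a position it took for 4346 of all 16417 genes tested.

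The group comparison asked whether knockdown of PAF1 went with other levels of these genes. On the log2 scale 39 of the 43 members had a positive fold change (knockdown minus control), against 48.3% of all genes, and the median was 0.20 over the members and -0.01 over all genes. Both libraries labelled PAF1 knockdown exceeded both controls for 17 members, or 39.5%, against 22.1% of all genes. Only CDC6 had both below both controls, a pattern of 22.6% of all genes. The count of 17 ignores counting error: SLBP is among them, at 87.1 CPM in the unprefixed knockdown against 87.0 CPM in the unprefixed control. Nor is that count separate from the low SP-prefixed control, which was the lowest library for 36 members. No member passed an adjusted p of 0.05 in edgeR's quasi-likelihood test, and 0% of all genes did. The lowest Benjamini-Hochberg adjusted p from edgeR was 0.423 among the members and 0.174 among all genes. At an unadjusted p under 0.05 there was 1 higher member, UHRF1, against 4.05% of all genes higher; 1841 genes passed that level in either direction. DESeq2 called 236 genes and 0 members, and limma-voom called 0 of either. The labels do not say whether the libraries of a group came from separate cultures; the p-values measure the spread between libraries, which may be technical.

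With the prefix as a term in the fit, which leaves 1 residual degree of freedom, edgeR called 0.542% of all genes higher in the knockdown and 0 members (lowest Benjamini-Hochberg adjusted p of a member 0.181). At an unadjusted p under 0.05 in that fit, 5.57% of all genes were higher, and the members UHRF1 and MCM10 were among them. The median of the members was 0.21. The prefix itself, SP-prefixed minus unprefixed with group as a term, gave a member median of -0.11. By sign, 33 of the 43 members were lower, against 8403 of all 16417 genes. The prefix passed 0 members at an adjusted p of 0.05, with 0.25% of all genes passing, and the lowest edgeR Benjamini-Hochberg adjusted p of a member was 0.147. At an unadjusted p under 0.05, 5.1% of all genes were lower and so were 2 members, CCNE2 and RRM2; 1761 genes passed that level in either direction.

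The 4 libraries can be read as pairs of single libraries, without a test. In the unprefixed pair the member median of knockdown minus control, as a difference in log2(CPM + 0.5), was -0.03, with 20 members higher and 23 lower. In the SP-prefixed pair the same median was 0.39, with 39 higher and 4 lower. The medians over all genes were within 0.01 of 0. The difference was larger in the SP-prefixed pair for 40 of the 43 members: 20 were lower in the unprefixed pair and higher in the SP-prefixed one, 19 were higher in both, 3 were lower in both, and 1 was higher in the unprefixed pair only. The controls differed from each other by a median of -0.31 (SP-prefixed minus unprefixed), with 37 members lower, against 8432 of all 16417 genes. The libraries labelled PAF1 knockdown differed by 0.12, with 36 members higher, against 8242 of all genes. These pairs share libraries, so they are not separate results. The difference between the controls was thus larger than the group difference for the median member.

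**Figure D2:**
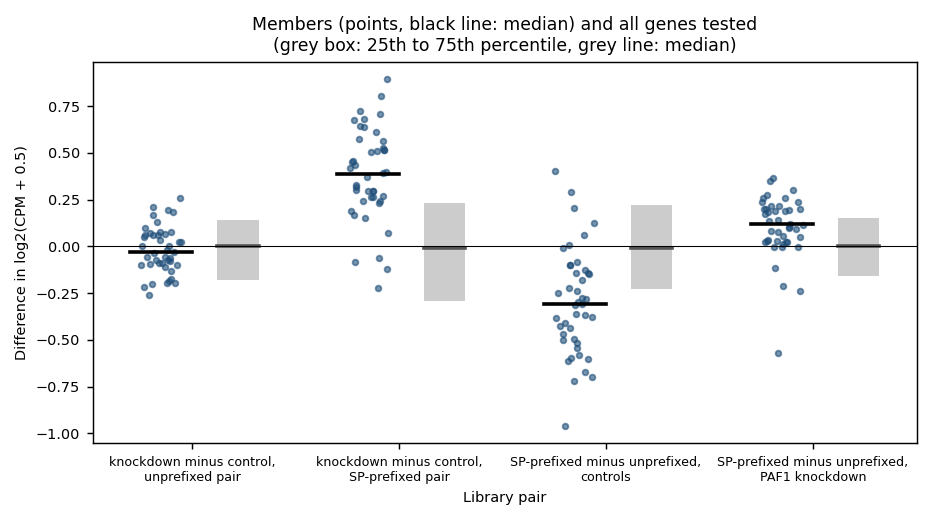
Points are the 43 genes, black lines their medians, and grey boxes the span from the 25th to the 75th percentile of all 16417 genes tested, as differences in log2(CPM + 0.5) between the libraries named on the horizontal axis. Members centre near 0 in the unprefixed pair (median -0.03), above 0 in the SP-prefixed pair (0.39) and below 0 between the controls (-0.31).

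**Figure D3:**
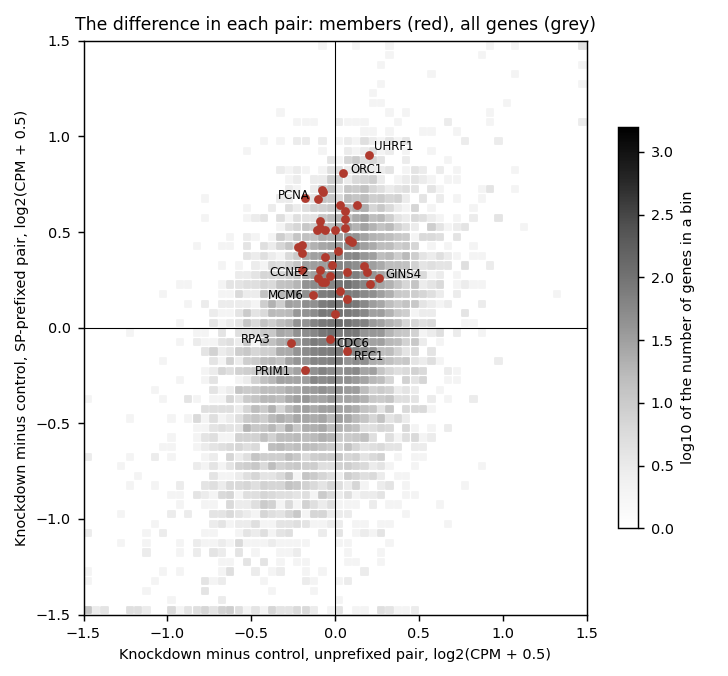
The horizontal axis is knockdown minus control in the unprefixed pair and the vertical axis the same in the SP-prefixed pair, both in log2(CPM + 0.5); red points are members, and grey squares are bins of all genes, with values beyond 1.5 drawn at the edge. Members lie within 0.26 of 0 on the horizontal axis and between -0.22 (PRIM1) and 0.90 (UHRF1) on the vertical one.

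Results without single libraries bear on this. Without the unprefixed control, edgeR called 8 members higher at a Benjamini-Hochberg adjusted p of 0.05, with 2.84% of all genes called higher; the lone control is then assumed to vary like the libraries labelled PAF1 knockdown. They were ORC1, MCM4, MCM10, GINS3, PCNA, FEN1, RRM2 and UHRF1. Without the SP-prefixed control the member median was 0.04, and 28 of the 43 members had a positive fold change, against 50.6% of all genes. The fold change reversed its sign for 2 members without the unprefixed knockdown and for 4 without the SP-prefixed knockdown. The group differences described below for single genes rest on the SP-prefixed control to this extent.

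Among the licensing genes, the level was lowest in the SP-prefixed control for 9 of 10. ORC1, the largest subunit of the origin recognition complex (GRCh38 chromosome 1, 52372829 to 52404459, minus strand), had 32.2, 22.6, 33.3 and 39.9 CPM. The unprefixed libraries were alike, and the SP-prefixed ones lay at either end, so the group fold change of 0.42 ± 0.20 (log2, SE, n = 2 per group) is made in 1 pair. ORC6, a small subunit of that complex, varied little, with 43.9, 41.5, 46.2 and 46.1 CPM (0.11 ± 0.13). CDT1, the loading factor that geminin inhibits, stood at 62.8 CPM in the SP-prefixed control, against 78.7 to 89.8 CPM in the others, and its groups overlapped.

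CDC6, the ATPase that joins ORC to load the helicase (GRCh38 chromosome 17, 40287633 to 40304657, plus strand), went against the list. It had 279, 291, 273 and 279 CPM, highest in the SP-prefixed control. Its groups did not overlap, but the unprefixed control and the SP-prefixed knockdown were equal to 3 digits, and the log2 fold change was -0.05 ± 0.12. None of the 4 octamers searched stood in its promoter shown above, which holds 3 CCAAT matches. Other forms of the E2F motif were not searched, so an E2F site in this promoter is not excluded.

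All 6 subunits of the MCM2-7 helicase were lowest in the SP-prefixed control. MCM2 had 206, 181, 220 and 248 CPM (log2 fold change 0.28 ± 0.13), and MCM7 had 368, 286, 384 and 437 CPM (0.33 ± 0.16). MCM4 had 411, 275, 421 and 429 CPM (0.31 ± 0.20). In these 3 genes both libraries labelled PAF1 knockdown exceeded both controls, by less over the unprefixed control than over the SP-prefixed one. The log2 difference in the unprefixed pair was 0.10 for MCM2, 0.06 for MCM7 and 0.03 for MCM4. In the SP-prefixed pair it was 0.45, 0.61 and 0.64. AP4M1, on the opposite strand, shares 8.94% of the MCM7 length. MCM3 had 387, 286, 364 and 423 CPM (0.22 ± 0.18), and MCM5 had 199, 160, 191 and 207 CPM (0.15 ± 0.15). MCM6 had 154, 127, 141 and 143 CPM (0.01 ± 0.14). In these other 3 subunits the unprefixed control exceeded the unprefixed knockdown, and the groups overlapped.

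Per length, the subunits of the helicase kept their order in every library. MCM3 was highest, at 106, 78.4, 99.7 and 116 RPKM, and MCM5 was lowest, at 27.1, 21.8, 26.0 and 28.3 RPKM. The ratio of MCM3 to MCM5 was 3.59 to 4.10. The summed level of the 6 subunits was 357, 274, 354 and 392 RPKM, so the complex as a whole was low in the SP-prefixed control, as its members were.

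**Figure D4:**
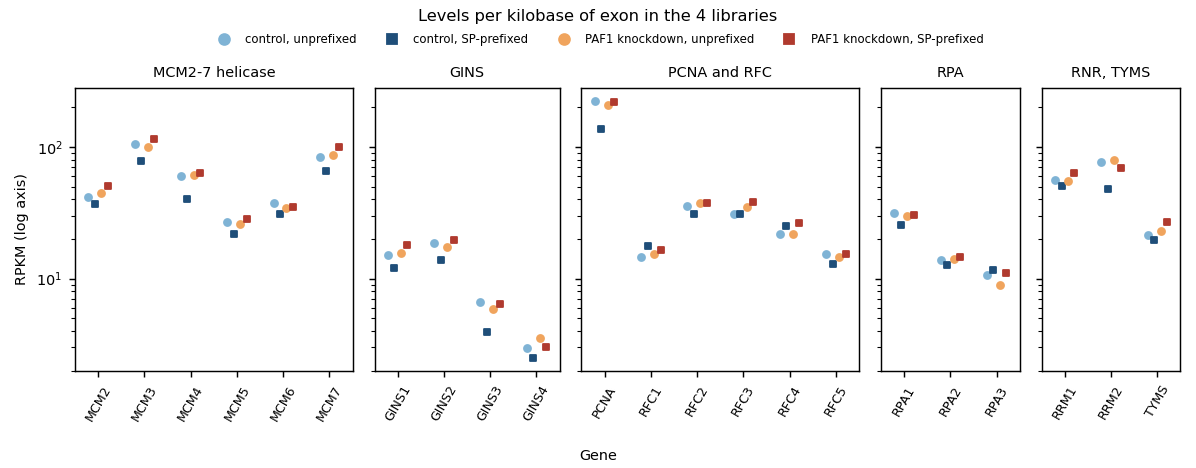
The vertical axis is RPKM on a log axis for each gene of 5 groups, with 1 point per library, colours for the groups and squares for SP-prefixed libraries (RNR is ribonucleotide reductase, RRM1 with RRM2). PCNA stands highest, at 138 to 224 RPKM, GINS4 lowest of those drawn, and the order MCM3, MCM7, MCM4, MCM2, MCM6, MCM5 holds in every library.

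The factors that activate the helicase were all lowest in the SP-prefixed control, 6 of 6. MCM10, which is needed for the helicase to start unwinding, had 71.4, 49.6, 78.0 and 77.8 CPM (log2 fold change 0.36 ± 0.18). CDC45, the cofactor that completes the active helicase with GINS, stood at 46.7 CPM in the SP-prefixed control, against 60.7 to 67.0 CPM in the others. Both libraries labelled PAF1 knockdown exceeded both controls for MCM10, and the groups overlapped for CDC45.

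Of the 4 GINS subunits, GINS1 had 61.0, 48.9, 63.6 and 73.0 CPM (0.31 ± 0.16), and GINS4 had 16.2, 13.6, 19.5 and 16.4 CPM (0.27 ± 0.18). GINS4 had the largest positive difference of the members in the unprefixed pair, 0.26. GINS2 and GINS3 had overlapping groups, and GINS3 fell furthest, to 63.1% of the mean of the others. GINS2 was highest and GINS4 lowest per length in every library, with a ratio of 4.89 to 6.60. GINS4 shares 21.17% of its counted length with a gene on the opposite strand that had 4 counts in all. Whether counting used strand is not given in the sources used here, and reads of overlapping genes therefore cannot be told apart.

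The polymerase genes moved less, with the SP-prefixed control lowest for 6 of 8 and a median log2 fold change of 0.11. POLE, the catalytic subunit of the leading-strand polymerase, had 109, 102, 122 and 127 CPM (0.24 ± 0.12), and POLD3, an accessory subunit of the lagging-strand polymerase, had 86.1, 66.6, 87.4 and 88.0 CPM (0.20 ± 0.15). PRIM2, the large primase subunit, had 28.0, 25.3, 32.4 and 29.9 CPM (0.22 ± 0.15). In POLD3 only the SP-prefixed control stood apart. In POLE the controls lay closer to each other than to either library labelled PAF1 knockdown, and below both. PRIM2 also had both controls below both libraries labelled PAF1 knockdown. Its unprefixed control, however, lay nearer to the SP-prefixed knockdown than to the SP-prefixed control. POLA1, POLA2, POLD1 and POLE2 had overlapping groups and log2 fold changes of 0.05 to 0.12.

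PRIM1, the catalytic primase subunit, had the opposite order, with 13.0, 17.3, 11.3 and 14.8 CPM. It was highest in the SP-prefixed control, and both SP-prefixed libraries exceeded both unprefixed ones. Its log2 fold change was -0.21 ± 0.22 for the group, the lowest of the members, and 0.40 ± 0.18 for the prefix (SP-prefixed minus unprefixed; edgeR, Benjamini-Hochberg adjusted p = 0.46). PRIM1 shares 5.42% of its length with HSD17B6 on the opposite strand and 1.35% with NACA, which had 24021 counts against 1117 for PRIM1.

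PCNA, the sliding clamp that holds polymerases on DNA (GRCh38 chromosome 20, 5114953 to 5126626, minus strand), had 330, 203, 307 and 324 CPM. The SP-prefixed control stood at 63.3% of the mean of the others, whose highest value exceeded their lowest by 7.35%. The unprefixed control was the highest library, so the groups overlapped, and the log2 fold change was 0.24 ± 0.22. The lanes, which are technical replicates of the same libraries, had 207 and 199 CPM of PCNA for the SP-prefixed control, against 301 to 333 CPM elsewhere.

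The genes of the RFC complex, which loads PCNA, were in several orders across the libraries. RFC2 had 79.4, 68.0, 83.6 and 83.5 CPM (0.18 ± 0.13), and RFC3 had 88.4, 88.9, 101 and 109 CPM (0.24 ± 0.12). The controls were equal within 1 CPM for RFC3, below both libraries labelled PAF1 knockdown. RFC1, the large subunit, had 97.9, 120, 103 and 110 CPM and was highest in the SP-prefixed control, and RFC4 was at 75.3 CPM there and 65.1 to 79.2 CPM elsewhere. RFC5 was lowest in the SP-prefixed control, at 42.0 CPM against 47.9 to 50.1 CPM. The summed level of the 5 subunits was 118, 118, 125 and 134 RPKM, equal in the controls to 3 digits, and the order of the subunits changed between libraries.

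FEN1, which cuts the flaps of Okazaki fragments, had 145, 99.1, 138 and 162 CPM, and LIG1, which seals them, had 143, 110, 123 and 147 CPM. Both were lowest in the SP-prefixed control with overlapping groups (log2 fold changes of 0.30 ± 0.20 and 0.10 ± 0.17). FEN1 shares 6.7% of its length with TMEM258 on the opposite strand.

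The RPA complex, which coats single-stranded DNA, showed small differences. RPA1 had 173, 141, 164 and 166 CPM (0.08 ± 0.14), RPA2 had 28.0, 25.6, 28.5 and 29.2 CPM (0.11 ± 0.14), and RPA3 had 34.6, 37.8, 28.8 and 35.7 CPM (-0.17 ± 0.16). RPA3 was highest in the SP-prefixed control, unlike the other subunits, and lowest in the unprefixed knockdown. RPA1 was highest and RPA3 lowest per length in every library.

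RRM2, the S phase subunit of ribonucleotide reductase, had 381, 239, 398 and 343 CPM. Both SP-prefixed libraries were below both unprefixed ones, with the control far lower, and the prefix gave a log2 fold change of -0.44 ± 0.15 (edgeR, Benjamini-Hochberg adjusted p = 0.299) against 0.26 ± 0.22 for the group. RRM1, the subunit that is steadier through the cycle, stood at 210 CPM for the SP-prefixed control, against 230 to 264 CPM elsewhere. Per length RRM2 exceeded RRM1 in all libraries but the SP-prefixed control, where they had 48.2 and 50.3 RPKM. TYMS, which makes thymidylate, had 53.3, 48.1, 56.2 and 66.3 CPM (0.27 ± 0.14), with both libraries labelled PAF1 knockdown above both controls; 18.83% of its length is shared with ENOSF1 on the opposite strand.

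The G1/S regulators were lowest in the SP-prefixed control, 3 of 3, and their groups overlapped. CCNE1, a cyclin that activates CDK2, had 16.0, 10.4, 15.1 and 17.4 CPM (0.30 ± 0.24). E2F1, the transcription factor, had 126, 88.9, 110 and 117 CPM (0.08 ± 0.18) and was highest in the unprefixed control. CCNE2, the second E-type cyclin, had 16.4, 8.17, 15.3 and 10.2 CPM. Both SP-prefixed libraries were lower than both unprefixed ones in CCNE2, with a prefix log2 fold change of -0.80 ± 0.19 (edgeR, Benjamini-Hochberg adjusted p = 0.147). CCNE2 shares 37.05% of its length with INTS8 on the opposite strand, which had 3794 counts against 994.

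UHRF1, which reads hemimethylated DNA behind the fork and guides DNMT1 (GRCh38 chromosome 19, 4903080 to 4962154, plus strand), had 58.7, 38.1, 67.3 and 71.3 CPM. It showed the largest group difference of the members, 0.52 ± 0.21 (log2, SE, n = 2 per group), with an unadjusted p of 0.0416 and a Benjamini-Hochberg adjusted p of 0.423 in edgeR. The groups did not overlap, and the unprefixed pair differed by 0.20 and the SP-prefixed pair by 0.90. SLBP, which binds the stem-loop of replication-dependent histone mRNAs, had 87.0, 65.4, 87.1 and 93.4 CPM (0.24 ± 0.16). Its unprefixed libraries were equal within 1 CPM.

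Of 70 other genes of replication and G1/S control, 68 passed the filter and 0 passed an adjusted p of 0.05 in any of these 3 edgeR tests. Their median log2 fold change was 0.18, with 56 higher and 12 lower, and the SP-prefixed control was lowest for 47. Of the 5 with the largest changes, CDC25A, the phosphatase that activates CDK2, had 30.1, 22.0, 36.1 and 42.9 CPM (0.60 ± 0.19). GMNN, the inhibitor of CDT1, had 64.4, 42.6, 73.1 and 77.4 CPM (0.49 ± 0.20), and CLSPN, a fork checkpoint adaptor, had 48.4, 28.6, 52.8 and 55.0 CPM (0.48 ± 0.24). These 3 had both libraries labelled PAF1 knockdown above both controls, and the SP-prefixed control lowest. POLD4, the smallest subunit of polymerase delta, had 19.3, 22.7, 15.9 and 10.7 CPM (-0.65 ± 0.22), lower in both. CDKN1B, the CDK2 inhibitor p27, had 59.8, 109, 56.5 and 64.8 CPM (-0.48 ± 0.27), so that the SP-prefixed control was high for this inhibitor and the other libraries were alike.

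Mitosis genes and replication-dependent histone genes, the latter transcribed in S phase, had other orders of the libraries. Of 34 mitosis genes, 31 had a positive group fold change (median 0.16), but the unprefixed control was lowest for 23 and the SP-prefixed control for 9. MKI67 had 367, 537, 418 and 586 CPM, lower in the unprefixed libraries. Of 13 histone genes, which resemble each other and can share reads, 9 were tested, at means of 0.719 (H2AC20) to 18.5 CPM (H1-2). Those not tested had at most 6 counts in any library. The median of the tested ones was -0.51, and 8 were highest in the unprefixed control and 8 lowest in the SP-prefixed knockdown. Whether such low levels follow the histone mRNAs made in S phase was not tested. H2BC21 had 11.9, 8.37, 5.67 and 3.21 CPM and fell in the fit with the prefix term (log2 fold change -1.21, edgeR, Benjamini-Hochberg adjusted p = 0.0253). No test was made between the lists.

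**Figure D5:**
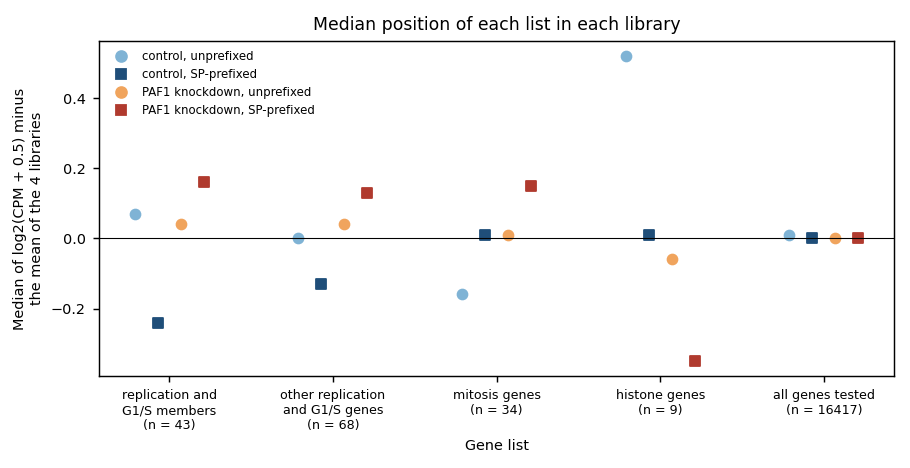
The vertical axis is the median over a gene list of log2(CPM + 0.5) minus each gene's mean over the 4 libraries, with 1 point per library. The members stand at 0.07, -0.24, 0.04 and 0.16, mitosis genes at -0.16 in the unprefixed control, and histone genes at 0.52 in the unprefixed control and -0.35 in the SP-prefixed knockdown.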

How the data were processed

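Per the labels' protocols, RNA (integrity number 10 throughout) was extracted with mirVana and sequenced from TruSeq RNA libraries. The deposited values are whole-number counts per gene and lane, not normalized by the authors; FastQC, HISAT2 and featureCounts, and the builds hg19 and GRCh38, are named without versions or roles per the submitters' processing notes. All 43 members overlap their GENCODE 29 span on GRCh38. Symbols are current gene names, or those of GENCODE 29 where there was none, for 56753 of 60483 identifiers. Column names carried group, lane and prefix.

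Lanes were summed, as the labels call them technical replicates, giving 2 libraries per group with 17234973 to 22348416 counts. Counts were tested with edgeR 4.0.16 (quasi-likelihood F test, TMM, expression filter with a minimum count of 10, Benjamini-Hochberg over all 16417 genes, threshold 0.05), without covariates for the group and with group as a term for the prefix. Standard errors were derived from the F statistic. Differences between single libraries used log2(CPM + 0.5). Fits were tested on simulated data. Alternatives were DESeq2 1.42.0, limma-voom (limma 3.58.1), other scalings and filters, single lanes, a prefix term, and leaving out each library. R 4.3.3, Python 3.11.15, pandas 2.3.3, numpy 2.4.6, scipy 1.17.1 and matplotlib 3.10.9 were used.

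The members and the other lists were chosen with earlier results of these data known. Values in all libraries are given for members whose groups do not overlap, for the member with the highest mean CPM and the one with the largest absolute log2 fold change of each role, and for MCM2-7. Of the other replication genes, those past the threshold and the 5 with the largest changes at a mean of at least 5 CPM are named. LIG1, PRIM1, RFC1, CCNE2, MKI67 and H2BC21 were added after their values were seen.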

Additional observations from a re-analysis of the deposited data

Results flagged for a closer look

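The median over the 43 members of the log2 difference between knockdown and control had opposite signs in the SP-prefixed pair (0.39) and the unprefixed pair (-0.03). The medians differed by 0.42. With 1 library per group in each pair, this difference was not tested. PRIM1, RPA3 and CDC6 were lower in both pairs, and RFC1 was higher in the unprefixed pair only.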

How the results depend on the processing

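The member median of 0.20 stayed within 0.17 to 0.22 under other tests, scalings, filters, lanes and the prefix term, with 38 or 39 members positive and 0 called. Leaving out 1 library gave medians of 0.04 (without the SP-prefixed control) to 0.36 (without the unprefixed control), 28 to 39 positive members, 0 to 8 called members and 0 to 1316 called genes; the 208 genes called without the SP-prefixed control held 0 members. The group comparison, with 0 genes called, gave 320 with the prefix term and 236 with DESeq2. The prefix comparison, with 41 genes called, gave 68 with DESeq2, 109 with total library size, 0 without a filter, 17 with at least 1 CPM in 2 libraries, 0 without the group term, 94 in lane 1 and 288 in lane 2; the cause was not tested, and 0 members were called in each.

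The log2 fold change of CCNE2 was -0.03 in lane 1 alone and that of RPA2 -0.03 in lane 2 alone. Leaving out each library gave the following ranges of log2 fold changes for the members that changed sign, 15 of them without the SP-prefixed control: MCM6 -0.12 to 0.17, CDC45 -0.02 to 0.47, GINS2 -0.01 to 0.43, GINS3 -0.11 to 0.64, POLA1 -0.09 to 0.21, POLA2 -0.18 to 0.44, PRIM1 -0.41 to 0.01, POLD1 -0.09 to 0.26, PCNA -0.06 to 0.65, RFC1 -0.16 to 0.12, RFC4 -0.10 to 0.18, RFC5 -0.03 to 0.23, LIG1 -0.08 to 0.31, RPA1 -0.06 to 0.24, RRM2 -0.04 to 0.65, CCNE2 -0.37 to 0.65, E2F1 -0.15 to 0.36. Depth limits single members to counting half-widths of at most 15.6%. By the library number of the titles, no paired analysis was possible because the columns carry no such number; pairing by the prefix is the fit with the prefix term, with 320 genes and 0 members called.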

Other observations

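CDKN2A and CDKN2B, which encode inhibitors of the G1 kinases CDK4 and CDK6, had 0 counts in all 4 libraries, which allows at most 3 counts, or 0.132 to 0.174 CPM per library, for counting error only. The level of the SP-prefixed control relative to the mean of the other libraries had a median of 75.5% over the 14 members with an E2F octamer in the RefSeq promoter, with a range of 58.0% to 89.4%. Over the 22 members with a promoter and no octamer the median was 83.3%, with a range of 63.1% to 133%. These ranges overlap, and no test was made.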
